A study of Homo sapiens with 12 samples.

Results

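The comparison described here is the addition of 5-azacitidine to treatment of OCI-Ly7 lymphoma cells with an HDAC3 inhibitor. It sets 3 libraries with both drugs, called the combination, against 3 libraries with the inhibitor and no 5-azacitidine. Its members were the genes of the deposited count table that passed a filter on low counts, 17869 of 78892, read in 6 of the 12 libraries of the series. OCI-Ly7 is an established human cell line from a diffuse large B-cell lymphoma with a germinal-centre profile, and all groups are this 1 line. The combination received 100 nM 5-azacitidine once a day, first on day 0 and last on day 4, and 15 µM of the inhibitor on days 2 and 4. The inhibitor group received the inhibitor in the same way. Cells were taken on day 5. The other 6 libraries, 3 with vehicle only and 3 with 5-azacitidine in the same schedule but no inhibitor, give the effect of 5-azacitidine alone and share no library with the comparison. The sources used here do not name the compound that served as inhibitor. They also leave out whether a group's 3 libraries were separate cultures. The p-values then measure only how these libraries scatter, and that scatter may be technical.

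5-Azacitidine is a nucleoside drug that cells build into new RNA and DNA. In replicating DNA it captures DNA methyltransferases, above all DNMT1, which copies methylation onto the new strand, so that methylation of CpG sites is lost as cells divide. HDAC3 removes acetyl groups from histones as the enzyme of nuclear co-repressor complexes, which BCL6 brings to genes of B-cell activation and antigen presentation in germinal-centre cells. DNA methylation and histone deacetylation both mark silent genes, and drugs against both are studied together in lymphoma.

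The 12 libraries held 35947872 to 36337086 counts, and values per gene are given as CPM, the count divided by the library's total and multiplied by 1000000. Floors for genes without counts (3 counts, 0.0826 to 0.083 CPM in the compared libraries) cover counting error only. In a principal component analysis of the 6 libraries, the first component (31.8% of the variance) separated the groups, and the second (19.4%) set combination replicate 2 at -34.12 against -3.33 to 12.84 for the other 5. Pairs of combination libraries also differed more (chi-square per degree of freedom 9.14 to 14.8) than pairs of inhibitor libraries (3.37 to 4.54). With 5-azacitidine alone, replicate 1 stood apart, at 25.7 and 23.3 against replicates 2 and 3, which were at 3.92 against each other. Mitochondrially encoded genes took 12.14% to 13.02% of the counts with the inhibitor and 12.5%, 12.91% and 15.29% in combination replicates 1 to 3. They took 13.79%, 10.01% and 10.25% in replicates 1 to 3 of 5-azacitidine alone. All 11 B-cell markers, among them MS4A1, PAX5 and CD79A, were expressed, with a summed level of 4800 to 4890 CPM with the inhibitor and 4840 to 4950 CPM with the combination, and none was called (0 by edgeR, and 1 by DESeq2 at an adjusted p, 2 at an unadjusted p, under 0.05). In bulk RNA, fewer cells of a type and less RNA per cell cannot be told apart.

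Adding 5-azacitidine raised 806 genes and lowered 506 of the 17869, and the rises were the larger changes. Of the genes called higher, 106 rose at least 2-fold, against 13 of those called lower. CX3CR1, the receptor of the chemokine fractalkine, SYNPO, an actin-binding protein, and RGS1, a brake on chemokine receptor signalling in B cells, led the rises among genes of at least 5 CPM. CDKN1A, which encodes the cell-cycle inhibitor p21, rose 1.88-fold over its level with the inhibitor. Calls were made where the adjusted p was under 0.05 in edgeR's quasi-likelihood test, and the background is thus 4.51% of genes called higher, 2.83% called lower and 7.34% in either direction. The median log2 fold change was 0.0125 over all genes tested, 0.414 over the genes called higher and -0.288 over those called lower. Of the genes called higher, 181 stayed under 5 CPM in both groups, against 36 of those called lower. Leaving out 1 library moved these counts by over 1.5 times in several cases: the higher count fell to 443, 477 and 465 without inhibitor replicates 1, 2 and 3 and to 509 without combination replicate 3. The lower count fell to 259, 273 and 225 without inhibitor replicates 1, 2 and 3, to 252 and 330 without combination replicates 1 and 3, and rose to 880 without combination replicate 2.

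The 14 largest rises were named among called protein-coding genes of at least 5 CPM in the higher group whose groups did not overlap. Genes of low level with the inhibitor can pass this rule through the combination. CX3CR1 (ENSG00000168329, GRCh38 chromosome 3, 39263495 to 39281735) stood at 1.74, 2.43 and 2.27 CPM in inhibitor replicates 1, 2 and 3 and at 7.25, 6.77 and 7.37 CPM in combination replicates 1, 2 and 3 (log2 fold change 1.74 ± 0.19 SE, adjusted p = 2.37e-06). The groups lay far apart, and the combination libraries were close to each other. SYNPO went from 1.6, 2.21 and 1.66 to 5.67, 4.98 and 7.46 CPM (log2 fold change 1.73 ± 0.23 SE, adjusted p = 2.09e-05). RGS1 went from 3.1, 2.82 and 2.1 to 7.31, 6.63 and 6.74 CPM (log2 fold change 1.37 ± 0.19 SE, adjusted p = 4.52e-05). Every combination library exceeded every inhibitor library for both genes. DHRS9, a retinol dehydrogenase, went from 7.39, 9.67 and 8.24 to 19.2, 16.4 and 18.9 CPM (log2 fold change 1.12 ± 0.10 SE, adjusted p = 1.57e-07), again without overlap.

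These 4 genes are the largest rises that a RefSeq table of promoters holds. Their windows from 250 bases before to 50 bases after the start are printed because 5-azacitidine acts on methylation of CpG sites, so that the number of such sites can be seen. They come from RefSeq on GRCh38.p14, read 5′ to 3′ on the gene's strand, and capitals mark each CG. CX3CR1 (chr3:39281686-39281985, minus strand) holds 7, SYNPO (chr5:150600826-150601125, plus strand) 12, RGS1 (chr1:192575523-192575822, plus strand) 6 and DHRS9 (chr2:169066827-169067126, plus strand) 1. The median over the 11197 tested genes with a window in the table was 26.
CX3CR1: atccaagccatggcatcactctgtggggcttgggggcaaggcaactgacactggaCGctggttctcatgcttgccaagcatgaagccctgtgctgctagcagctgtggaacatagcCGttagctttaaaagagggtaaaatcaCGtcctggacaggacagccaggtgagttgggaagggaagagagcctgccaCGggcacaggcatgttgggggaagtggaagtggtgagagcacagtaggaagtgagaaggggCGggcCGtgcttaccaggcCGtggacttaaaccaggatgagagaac
SYNPO: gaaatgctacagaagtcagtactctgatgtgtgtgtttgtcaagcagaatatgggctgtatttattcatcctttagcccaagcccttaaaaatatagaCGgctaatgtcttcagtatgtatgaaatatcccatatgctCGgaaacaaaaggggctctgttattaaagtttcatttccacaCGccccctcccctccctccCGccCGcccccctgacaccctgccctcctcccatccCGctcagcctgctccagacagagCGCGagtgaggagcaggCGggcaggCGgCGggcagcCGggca
RGS1: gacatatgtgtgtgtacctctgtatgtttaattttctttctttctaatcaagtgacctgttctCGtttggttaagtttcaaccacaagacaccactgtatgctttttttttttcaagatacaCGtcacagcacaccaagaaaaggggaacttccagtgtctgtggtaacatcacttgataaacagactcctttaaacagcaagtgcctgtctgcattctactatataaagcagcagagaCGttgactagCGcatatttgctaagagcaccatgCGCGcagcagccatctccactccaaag
DHRS9: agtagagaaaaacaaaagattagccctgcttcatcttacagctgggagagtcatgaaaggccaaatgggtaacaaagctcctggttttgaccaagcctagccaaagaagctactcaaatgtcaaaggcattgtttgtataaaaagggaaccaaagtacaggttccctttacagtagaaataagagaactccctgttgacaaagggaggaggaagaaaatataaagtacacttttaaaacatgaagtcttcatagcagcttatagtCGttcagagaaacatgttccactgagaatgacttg

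The level of CDKN1A (chromosome 6, 36676460 to 36687397) was 30.5, 34.6 and 36.8 CPM with the inhibitor and 67.4, 62.8 and 59.7 CPM with the combination (log2 fold change 0.91 ± 0.08 SE, adjusted p = 1.05e-07), against 0.996 ± 0.207 CPM in vehicle and 2.98 ± 0.504 CPM with 5-azacitidine alone. So the combination libraries lay above all others of the series for this gene. EBI3, a subunit of the cytokines IL-27 and IL-35, went from 2.96, 2.96 and 4.37 to 7.14, 7.05 and 7.1 CPM and was at 0 in every vehicle library. COL1A1, a chain of type I collagen, went from 2.66, 3.2 and 3.02 to 7.28, 5.06 and 6.71 CPM, and GFI1B, a repressor of blood-cell genes, from 5.73, 7.35 and 5.4 to 11.3, 12 and 11.3 CPM. None of these genes had overlapping groups, which the rule for naming them required. The other 6 were SEMA6B, CCL25, CDHR3, CAVIN1, SPOCD1 and TMEM130, with log2 fold changes of 0.91 to 1.22. SEMA6B was not called by DESeq2 (adjusted p = 0.103), while the other 13 were called in every alternative fit without a fold threshold.

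All 14 genes had also been called higher with the inhibitor against vehicle, a comparison that shares the inhibitor libraries and in which 26.4% of all tested genes were called higher. Their vehicle means ran from 0 to 1.01 CPM, and 13 were under 1 CPM. With 5-azacitidine alone, 8 of the 14 were called higher (4.31% of all tested genes were), and for none was the difference between the effect with and without the inhibitor called (0.716% of all tested genes). GFI1B rose by 2.11 on the log2 scale with 5-azacitidine alone and by 0.92 on the inhibitor, while CX3CR1 (1.13, adjusted p = 0.325) and SYNPO (0.31, adjusted p = 0.856) were not called with 5-azacitidine alone. Counting did not use strand and left out reads that overlap more than 1 gene, and 8 of the 14 overlap an exon annotated on the opposite strand (CDKN1A, COL1A1, DHRS9, CDHR3, CAVIN1, SPOCD1, GFI1B and TMEM130), so their values are less certain.

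**Figure D1:**
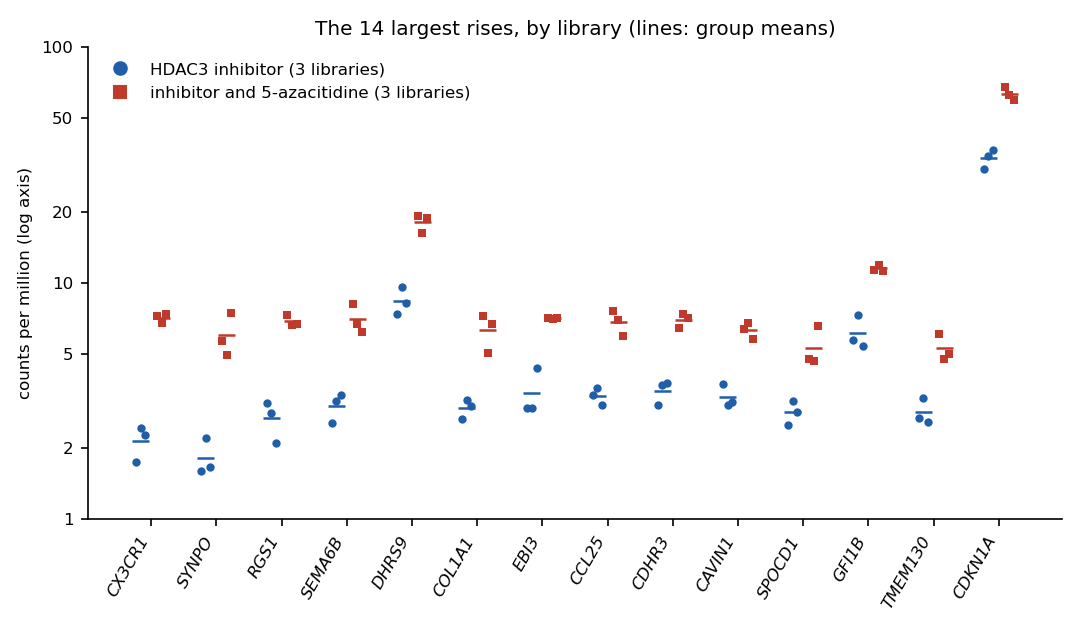
The 14 largest rises, in CPM on a log axis. Each point is 1 library (circles for the inhibitor, squares for the combination), and short lines are group means of 3. The groups do not overlap for any gene, as the rule for naming them required, from CX3CR1 (1.74 to 2.43 against 6.77 to 7.37 CPM) to CDKN1A (30.5 to 36.8 against 59.7 to 67.4 CPM).

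P2RY6, a receptor for UDP, was the 1 gene named for having at most 3 counts in each inhibitor library: it had 1 count over the 3 inhibitor libraries and 39 over the 3 combination libraries. The ratio of these pooled counts was 38.9, with an exact 95% interval from 6.59 to 1580 that covers counting error only. The gene was picked by these same counts and its higher call, so the ratio and interval are descriptions and no test. It had no count in vehicle, and its combination libraries held 16, 11 and 12 counts.

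The 14 largest falls were named by the same rule as the rises, among called protein-coding genes of at least 5 CPM without overlap of the groups. Their log2 fold changes were -0.55 to -0.46. The 13 genes called lower that fell at least 2-fold did not meet this rule. SYNE2, which links the nucleus to the actin skeleton (chromosome 14, 63761899 to 64226433), went from 122, 129 and 148 CPM in inhibitor replicates 1, 2 and 3 to 83.7, 91.1 and 95.4 CPM in combination replicates 1, 2 and 3 (log2 fold change -0.55 ± 0.07 SE, adjusted p = 1e-05). CEP290, a protein of the ciliary transition zone, went from 18.1, 20.4 and 18.8 to 12, 14 and 13.1 CPM (log2 fold change -0.54 ± 0.10 SE, adjusted p = 0.000636). The combination libraries were all lower, by about the same step. Also among the 14 were CEP162 and CEP152, further centriole and cilium proteins (-0.54 and -0.46), GOLGA4, a tether of the trans-Golgi (32, 28.9 and 28.5 to 19, 21.7 and 21.8 CPM), LPP, an adhesion-site protein (25.3, 23.9 and 27.4 to 17.3, 18.6 and 18.6 CPM), and WDR4, the partner of the METTL1 tRNA methyltransferase (46.4, 45.6 and 44.7 to 35.2, 30.7 and 32.3 CPM). Each of these kept its call in every alternative fit without a fold threshold.

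ZEB1, a repressor known from the epithelial-mesenchymal transition, went from 16.1, 16.3 and 19 to 9.61, 14.4 and 12.3 CPM (log2 fold change -0.49 ± 0.11 SE, adjusted p = 0.00575), with adjusted p of 0.0559 without inhibitor replicate 3 and 0.0553 without combination replicate 1. CLOCK, the circadian activator, went from 6.92, 6.74 and 8.22 to 4.76, 6.25 and 3.89 CPM (log2 fold change -0.54 ± 0.14 SE, adjusted p = 0.0143) and had adjusted p of 0.106, 0.0754 and 0.105 without inhibitor replicate 3, combination replicate 1 and combination replicate 3. The rule for naming the falls required disjoint groups, and in both genes combination replicate 2 was the nearest to the inhibitor libraries. FEM1C lost its call without the same 3 libraries (0.115, 0.098 and 0.0757), ANKRD36B without inhibitor replicate 3 (0.0619) and KANTR without inhibitor replicate 2 (0.052). ANKRD36, ANKRD36B and ZDHHC11 have near-identical copies in the genome and are uncertain in counts that split reads with several matches. Of the 14 falls, 8 overlap an exon on the opposite strand (CEP152, LPP, ZEB1, KANTR, GOLGA4, CEP290, CLOCK and SYNE2).

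Against vehicle, 7 of the 14 were called lower and 1 (LPP) higher with the inhibitor, where 24.9% of all tested genes were called lower and 26.4% higher. With 5-azacitidine alone, 4 were called lower (4.75% of all tested genes were), among them SYNE2 (-0.37) and WDR4 (-0.60), and 3 had a called difference between the effects with and without the inhibitor, CEP290, CEP162 and CEP152. The gene spans more than 50000 bases in 12 of the 14. Their median transcript GC was 39.9% and median exonic length 9290 bases, against 57.8% and 4360 bases in the 14 largest rises. With an offset for GC and exonic length of each library, all 14 falls were still called, at log2 fold changes of -0.511 to -0.333, and all 14 rises, at 0.874 to 1.75.

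**Figure D2:**
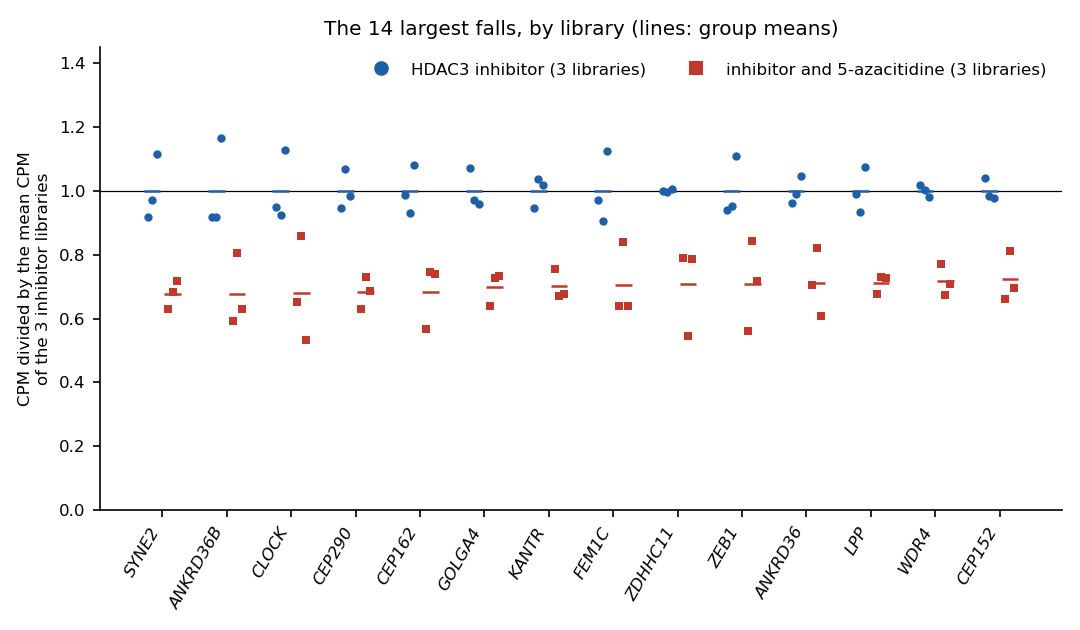
The 14 largest falls, as CPM divided by the mean of the 3 inhibitor libraries (linear axis from 0). Circles are inhibitor libraries, squares combination libraries and short lines group means. No combination library reaches an inhibitor library in any of the 14 genes, which the rule for naming them required.

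Of the enzymes that the drugs act on, none was called in the fit of all 12 libraries. DNMT1 was at 786, 818 and 805 CPM with the inhibitor and 792, 708 and 799 CPM with the combination, and its log2 fold change of -0.06 was not called (adjusted p = 0.591). DNMT3A (0.01, adjusted p = 0.96), HDAC3 (0.04, adjusted p = 0.703), BCL6 (0.09, adjusted p = 0.364) and MYC (-0.01, adjusted p = 0.964) were not called either. DNMT3B, at 27.4, 31.8 and 25.3 against 33, 30.3 and 35 CPM, had a log2 fold change of 0.23 (adjusted p = 0.0896), and it was called higher without inhibitor replicate 2 (0.0339), without combination replicate 2 (0.0426) and with the number in the library names fitted as a replicate block (0.0171). UHRF1, which brings DNMT1 to newly copied DNA, fell from 229, 240.1 and 231 to 207, 190.0 and 198 CPM (log2 fold change -0.22 ± 0.05 SE, adjusted p = 0.00327), without overlap. It fell with 5-azacitidine alone too (-0.30). Of the 25 tested genes of the DNA methylation machinery, 3 were called lower (5 with the offset for GC and length), UHRF1, the chromatin remodeller HELLS (60.3, 59.1 and 59.8 to 42.9, 51.3 and 47 CPM) and MAT2A, which makes the methyl donor S-adenosylmethionine (-0.20, not called without inhibitor replicates 1 or 2, adjusted p = 0.0755 and 0.108). IDH1, which makes alpha-ketoglutarate, was called higher (0.27, adjusted p = 0.0537 without inhibitor replicate 3).

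Among the gene lists, the one with most members raised was cholesterol and fatty acid synthesis: 15 of 33 tested members were called higher and 1 lower, with a median log2 fold change of 0.182. HMGCS1, which feeds the mevalonate pathway, was among the leading members together with MSMO1 and TM7SF2, which act late in sterol synthesis. HMGCS1 went from 219.6, 229 and 225 CPM to 304, 313 and 303 CPM (log2 fold change 0.46 ± 0.05 SE, adjusted p = 6.14e-06). Every combination library exceeded every inhibitor library. MSMO1 (34.8, 32.9 and 31.9 to 47.7, 42.9 and 46.5 CPM) and TM7SF2 (45, 47.9 and 50.2 to 65.1, 68.3 and 66.1 CPM) rose by 0.47 and 0.49 on the log2 scale. INSIG1, which holds the sterol sensor back (0.39), the epoxidase SQLE (0.35), the desaturase SCD (0.30), LSS (0.25), IDI1 (0.24) and FDFT1 (0.24) also kept their calls without each library. Calls for HSD17B7, SC5D, MVK and DHCR7 (0.18 to 0.28) and, in the lower direction, ACACA (-0.19), were each lost without at least 1 library. With 5-azacitidine alone, 7 members were called higher and 4 lower, with a median of 0.000799. Leaving out each library gave 11 to 15 called higher. In each list, examples are among the 4 members of smallest adjusted p, and further members were named after their values were seen. This choice favours genes whose groups do not overlap, and the share of all tested genes without overlap is not given here. A lack of overlap in an example is therefore a description and adds nothing to its call. Over all lists, 203 members were called and 83 of them kept the call without each library in turn. A call that was lost without some library is described in what follows as dependent on single libraries.

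The promoter windows of 26 of these members were searched for TCACNCCAC, a core of the element that sterol-regulated factors bind, on both strands. It was present in 1 of 26 (3.85%), that of SREBF2, and in 129 of 11197 windows of all tested genes (1.15%).

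Of 49 tested interferon-stimulated genes, 11 were called higher and none lower, with a median of 0.181. The log2 fold change was above 0 in 42 of the 49, and 38 were not called. LGALS3BP, a secreted galectin ligand, made the largest called change (chromosome 17, 78971238 to 78979947): 0.332, 0.442 and 0.747 CPM with the inhibitor and 2.99, 3.91 and 3.84 CPM with the combination (log2 fold change 2.82 ± 0.28 SE, adjusted p = 5.25e-07). That is 7.08-fold, from a level near that of vehicle (0.313 ± 0.177 CPM). IFI6 went from 14.4, 15.5 and 16.6 to 22.3, 25.2 and 23.4 CPM (log2 fold change 0.62 ± 0.10 SE, adjusted p = 0.000184), and IFI35 from 12.6, 11.8 and 13.4 to 19.8, 21.1 and 16.6 CPM (log2 fold change 0.61 ± 0.10 SE, adjusted p = 0.000195). OAS3, a sensor of double-stranded RNA that activates RNase L, went from 88.3, 91 and 88.5 to 120.0, 107 and 116 CPM (log2 fold change 0.36 ± 0.06 SE, adjusted p = 0.000129). In all 4 genes the lowest combination library was above the highest inhibitor library. PARP9 (0.45), STAT2 (0.34) and OAS1 (0.30) were also called, and MX2 (0.72), IRF7 (0.34), IFITM2 (0.32) and OAS2 (0.20) depended on single libraries. The higher count was 7 without inhibitor replicate 1 or 2. With 5-azacitidine alone, 15 were called higher and the median was 0.236. Of 21 genes that sense nucleic acids, 2 were called higher (4 with the offset for GC and length), IRF5 (12.7, 14.6 and 12.3 to 19.9, 17.4 and 17.2 CPM) and SAMHD1 (0.21, adjusted p = 0.107 without inhibitor replicate 3, and also over 0.05 without inhibitor replicate 1 or 2 or combination replicate 3).

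The core of the interferon-stimulated response element, GAAANNGAA (or TTCNNTTTC on the other strand), was in 26 of the 40 promoter windows that the table holds for this list (65.0%), against 763 of 11197 (6.81%). Of the 26 genes with it, 3 were called higher, IFI6, OAS3 and LGALS3BP, against 11 of the 49 tested members of the whole list (22.4%). The 49 include these 26 and also members without a window, so both shares do not compare members with and without the core. The windows of LGALS3BP (chr17:78979874-78980173, minus strand) and OAS3 (chr12:112938224-112938523, plus strand) are shown as examples of called members with the core, which capitals mark. A match is a description of letters and not a measured site.
LGALS3BP: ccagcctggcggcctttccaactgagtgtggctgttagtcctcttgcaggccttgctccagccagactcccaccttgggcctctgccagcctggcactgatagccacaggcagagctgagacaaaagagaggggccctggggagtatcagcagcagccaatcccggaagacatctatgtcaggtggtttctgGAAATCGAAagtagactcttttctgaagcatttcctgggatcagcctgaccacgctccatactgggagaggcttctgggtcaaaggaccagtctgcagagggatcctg
OAS3: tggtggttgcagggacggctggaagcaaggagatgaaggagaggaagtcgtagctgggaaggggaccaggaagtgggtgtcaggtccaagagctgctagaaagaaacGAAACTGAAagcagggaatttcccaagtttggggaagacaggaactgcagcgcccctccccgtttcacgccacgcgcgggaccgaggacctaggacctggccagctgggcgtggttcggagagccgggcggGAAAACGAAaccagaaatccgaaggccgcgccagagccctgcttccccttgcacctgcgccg

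Of 20 tested genes of costimulation and immune checkpoints, the surface molecules by which B cells meet T cells, 7 were called higher and none lower (median 0.266), and 13 were not called. CD86, the ligand of CD28, went from 108, 106 and 105 to 143, 149 and 134 CPM (log2 fold change 0.43 ± 0.06 SE, adjusted p = 5.37e-05). TNFSF9, a ligand of the TNF family for activated T cells, went from 89.8, 93 and 91.1 to 121, 113 and 112 CPM (log2 fold change 0.34 ± 0.05 SE, adjusted p = 0.000165). CD40, the receptor of T-cell help, went from 64.1, 60.2 and 64.9 to 80.2, 77.1 and 72.5 CPM (log2 fold change 0.29 ± 0.06 SE, adjusted p = 0.00187). The groups were disjoint in all 3. LGALS9 (1.63, 1.75 and 1.36 to 3.16, 3.84 and 1.91 CPM) was not called without inhibitor replicate 1 or 3 or combination replicate 1 or 2 (adjusted p of 0.0518 to 0.0942), and the other calls, SLAMF7, HAVCR2 and ICOSLG (1.22, 0.42 and 0.29), depended on single libraries too. The count was 3 without inhibitor replicate 1 or 3 and 4 without combination replicate 1. With 5-azacitidine alone, 6 were called higher.

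Of 20 MHC class II genes, which present antigen to helper T cells, 4 were called higher and none lower, with a median of 0.141, and 7 were called higher with limma voom or with the filter of 5 CPM in 3 libraries. The 4 were HLA-DMA (326, 316 and 326 to 405, 388 and 383 CPM, log2 fold change 0.29 ± 0.05 SE, adjusted p = 0.000815) and HLA-DMB (0.23), which load peptides, HLA-DOA (0.20, adjusted p = 0.0695 without inhibitor replicate 1), which tempers that loading, and the protease CTSS (0.28). The class II activator CIITA stayed at -0.02 (adjusted p = 0.932). Of 19 MHC class I genes, 2 were called higher and none lower, and 0 were called without inhibitor replicate 3. TAP1, a subunit of the peptide transporter, was one of them (0.24, adjusted p = 0.0622 without inhibitor replicate 3).

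Receptors of migration and of antibody binding were called higher in 11 of 31 cases and lower in 1, with a median of 0.23. CCR7, the homing receptor of lymph nodes, went from 7.8, 7.26 and 8.36 to 13.1, 11.8 and 14.2 CPM (log2 fold change 0.75 ± 0.13 SE, adjusted p = 0.000478). FCRL3, an Fc receptor-like protein, went from 22.4, 21.7 and 23.4 to 36.2, 36 and 37.5 CPM (log2 fold change 0.71 ± 0.09 SE, adjusted p = 1.87e-05). FCER2, the low-affinity IgE receptor CD23, went from 89.8, 89.1 and 93.7 to 118, 116 and 113 CPM (log2 fold change 0.36 ± 0.06 SE, adjusted p = 0.000208). Neither CCR7 nor the others had overlapping groups. S1PR2, which holds B cells in the germinal centre, went from 68.8, 68.4 and 71 to 102, 79.2 and 96.1 CPM (log2 fold change 0.42 ± 0.07 SE, adjusted p = 0.000507), with combination replicate 2 nearest to the inhibitor libraries. CD24 (0.29) was called as well. Higher calls for CXCR3 (0.94), FCRL4 (0.87), CD300A (0.38), S1PR4 (0.26) and CXCR4 (0.19), and the lower call of the integrin gene ITGA4 (-0.32), depended on single libraries. The higher count was 7 without inhibitor replicate 1, inhibitor replicate 3 or combination replicate 1, 5 without inhibitor replicate 2, and 6 with the replicate block by library name.

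Genes of B-cell identity moved in both directions. In the list of 28 germinal-centre genes, 5 were called higher (among them S1PR2, SPIB at 0.27, LMO2 and KLHL6) and 3 lower (MYBL1, which fell from 32.6, 34.1 and 31.5 to 23.6, 28.5 and 24.4 CPM, SMARCA4 and TCL1A), with a median of 0.0258. KLHL6 and TCL1A depended on single libraries, and the higher count was 8 without combination replicate 2. IRF4, which plasma cells need, went from 66, 72.2 and 62.8 to 51.2, 50.1 and 59.8 CPM (log2 fold change -0.31 ± 0.07 SE, adjusted p = 0.00549, and 0.0583 without inhibitor replicate 2). PRDM1, the other driver of plasma cells, was at 9.88, 8.75 and 9.3 and 9.22, 8.17 and 9.03 CPM (adjusted p = 0.764). Of 18 plasma-cell genes, TNFRSF13B (0.35) and SLAMF7 (not without inhibitor replicate 1 or 3 or combination replicate 1 or 3) were called higher and IRF4 lower. Of 25 genes that BCL6 is known to repress, 6 were called higher and 1 lower, the latter not without inhibitor replicate 2. Among 22 NF-kB targets, 4 were called higher: EBI3, CD83, a marker of activation (73.8, 75.6 and 74.4 to 112, 113 and 117 CPM, log2 fold change 0.62 ± 0.06 SE, adjusted p = 1.62e-07), LTB, or lymphotoxin beta (51.5, 49.99 and 53.2 to 72.4, 74.7 and 64.9 CPM), and BCL2A1 (0.44, not called without inhibitor replicate 1 or 2 or combination replicate 2 or 3).

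Cell-cycle brakes and cell-death genes were raised in small number. BMF, a BH3-only protein that promotes apoptosis, went from 29, 29.96 and 27.6 to 48.7, 46.3 and 47 CPM (log2 fold change 0.72 ± 0.07 SE, adjusted p = 2.89e-07), well outside the spread of either group. Of 19 genes of the BCL2 family, 4 were called higher, but the other 3 (BAD, BCL2A1 and HRK) depended on single libraries: the list had 2 calls without inhibitor replicate 1, inhibitor replicate 3 or combination replicate 2, and 1 without inhibitor replicate 2 or combination replicate 3. Of 28 p53 targets, 4 were called higher and none lower. Beside CDKN1A these were TP53INP1 (14.5, 15.1 and 14.8 to 21.4, 21.2 and 22.4 CPM), the antiproliferative gene BTG2 (164, 160.5 and 162 to 236, 197 and 229.5 CPM, log2 fold change 0.45 ± 0.05 SE, adjusted p = 7.4e-06) and the tetraspanin CD82 (27.4, 27.2 and 28.6 to 38.3, 33.9 and 37.2 CPM). The median of the p53 list was 0.0443, and 24 of its members were not called. CDKN1A was also the only one of 8 CDK inhibitor genes that was called.

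Calls among DNA replication and repair genes were in the lower direction. Over all tested genes, lower calls grew with expression. They took 0.21% at a mean of up to 1 CPM over the 12 libraries, 5.44% at 20 to 100 CPM and 6.56% over 100 CPM. Of 52 S-phase genes, 10 were called lower (19.2%) and none higher, with a median of -0.127 and 5 members above 0. POLA1, the catalytic subunit of the primase polymerase, went from 99.6, 102 and 102 to 76, 86.7 and 72.8 CPM (log2 fold change -0.36 ± 0.06 SE, adjusted p = 0.000461). RFC3, of the clamp loader, went from 182, 170.0 and 170.3 to 141, 149 and 134 CPM (log2 fold change -0.29 ± 0.05 SE, adjusted p = 0.000923). Combination libraries were lower throughout, with replicate 2 the highest of the 3 in both genes. CDC45 (-0.24, adjusted p = 0.0727 without inhibitor replicate 1) and CLSPN (-0.31, 0.0504, 0.0983 and 0.115 without inhibitor replicates 2 and 3 and combination replicate 1) were the other examples. The lower count was 4, 3 and 3 without inhibitor replicates 1, 2 and 3, and 6 and 5 without combination replicates 1 and 3, and 19 with the offset for GC and length. With 5-azacitidine alone, 2 were called higher and 3 lower, at a median of -0.00971.

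Of 42 genes of the DNA damage response, 11 were called lower (26.2%) and none higher (median -0.101). PRKDC, the catalytic subunit of DNA-PK, went from 424, 455 and 432 to 319, 363 and 325 CPM (log2 fold change -0.37 ± 0.06 SE, adjusted p = 0.000333). RIF1, which steers double-strand break repair, went from 62, 58.9 and 59.8 to 43.7, 49.9 and 46.3 CPM (log2 fold change -0.36 ± 0.06 SE, adjusted p = 0.000507), and BRCA2 from 28.6, 26.5 and 30.6 to 21.5, 21.7 and 23.2 CPM (log2 fold change -0.36 ± 0.08 SE, adjusted p = 0.00374). FANCD2, of the Fanconi pathway, fell by 0.25 on the log2 scale. Calls for FANCB, FANCM, POLQ, ATM, XRCC2 and FANCI (-0.42 to -0.24) depended on single libraries. This list has long, AT-rich transcripts (median exonic length 11259 bases, median GC 43.7%), and 8 were called lower with the offset for GC and length. The count was 7 without inhibitor replicate 3 or combination replicate 1. With 5-azacitidine alone, 1 was called higher and 2 lower.

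The 68 genes of G2 and M phase split, 8 higher and 7 lower (median 0.0202). AURKA, the mitotic kinase, rose from 84.6, 85.3 and 83.7 to 102, 97.2 and 95.7 CPM (log2 fold change 0.23 ± 0.05 SE, adjusted p = 0.00673), and CDC25B and GTSE1 by 0.22 and 0.21 on the log2 scale. CENPF, a kinetochore protein, fell from 135, 149 and 148 to 107, 127 and 121 CPM (log2 fold change -0.27 ± 0.06 SE, adjusted p = 0.00779). CDC25B lost its call without inhibitor replicate 3, GTSE1 without inhibitor replicate 1, and CENPF without inhibitor replicate 2 or 3 or combination replicate 1 (adjusted p of 0.053 to 0.0805). The higher count was 3, 5 and 3 without inhibitor replicates 1, 2 and 3. The lower count was 2, 2 and 1 without these 3 libraries and 0, 12 and 4 without combination replicates 1, 2 and 3. With the offset for GC and length, 12 were higher and 4 lower, and with the replicate block by library name 11 were lower.

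Calls among genes of amino acid supply were mostly in the lower direction, with and without the inhibitor. Of 35 ATF4 targets, 11 were called lower and 1 higher (median -0.142), and 14 lower and 1 higher with 5-azacitidine alone (median -0.162). SLC7A5, the light chain of the leucine transporter, went from 482, 485 and 495 to 411, 377 and 382 CPM (log2 fold change -0.31 ± 0.05 SE, adjusted p = 9.88e-05). PHGDH, the first enzyme of serine synthesis, went from 306, 304 and 304 to 262, 258 and 252 CPM (log2 fold change -0.23 ± 0.05 SE, adjusted p = 0.00539), and MTHFD1L, of mitochondrial folate metabolism, from 101, 97.2 and 96.4 to 76.6, 78.9 and 77 CPM (log2 fold change -0.33 ± 0.06 SE, adjusted p = 0.00107). All 3 inhibitor libraries were above all 3 combination libraries for each. CHAC1, a glutathione-degrading enzyme, fell by 0.35 (adjusted p = 0.07 without inhibitor replicate 2), and the arginine transporter gene SLC7A1 (-0.22) kept its lower call without each library in turn. The lower calls of ASNS, ATF5, SLC1A5, GARS1, PSAT1 and PYCR1 (-0.57 to -0.19) and the higher call of DDIT4, an inhibitor of mTORC1 (0.32), depended on single libraries. Lower calls were 5, 4 and 6 without inhibitor replicates 1, 2 and 3 and 7 and 6 without combination replicates 1 and 3. In the mTOR list, RPTOR (87, 87.7 and 93.4 to 69.3, 60.4 and 65.7 CPM, log2 fold change -0.45 ± 0.06 SE, adjusted p = 1.83e-05) and RICTOR (13.8, 14.9 and 16.4 to 9.66, 11.7 and 11.6 CPM, log2 fold change -0.44 ± 0.09 SE, adjusted p = 0.00337), the defining subunits of mTORC1 and mTORC2, were called lower and RRAGD higher (not without combination replicate 3, adjusted p = 0.0677), of 34 tested, with 4 lower by DESeq2. Of 50 MYC and ribosome biogenesis genes, 3 were called lower (6.0%) and none higher (median -0.0797). That share is near the 5.44% and 6.56% of all tested genes called lower at 20 to 100 CPM and over 100 CPM. The list had 6 and 10 lower calls without 5-azacitidine replicate 1 and combination replicate 2. The lower count of this list was 8 with DESeq2 or with the replicate block by library name, 7 with the filter of 5 CPM in 3 libraries, 5 with limma voom and 9 with the offset for GC and length.

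Lysosome and autophagy genes were called higher in 8 of 35 cases and lower in 1, ATG7 (-0.31, not called without inhibitor replicate 2 or combination replicate 3), with a median of 0.131. The autophagy receptor OPTN went from 4.68, 5.66 and 4.95 to 8.53, 7.51 and 7.95 CPM (log2 fold change 0.66 ± 0.13 SE, adjusted p = 0.00161) and the protease CTSH from 22.8, 20.3 and 20.9 to 30.2, 30.9 and 29.3 CPM (log2 fold change 0.51 ± 0.08 SE, adjusted p = 8.26e-05). SQSTM1 (0.28, adjusted p = 0.053 without inhibitor replicate 3 and 0.0592 without combination replicate 1) and MAP1LC3B (0.27), further parts of the autophagy machinery, also rose. The higher count was 4 without inhibitor replicate 2 or 3 and 5 without combination replicate 3.

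**Figure D3:**
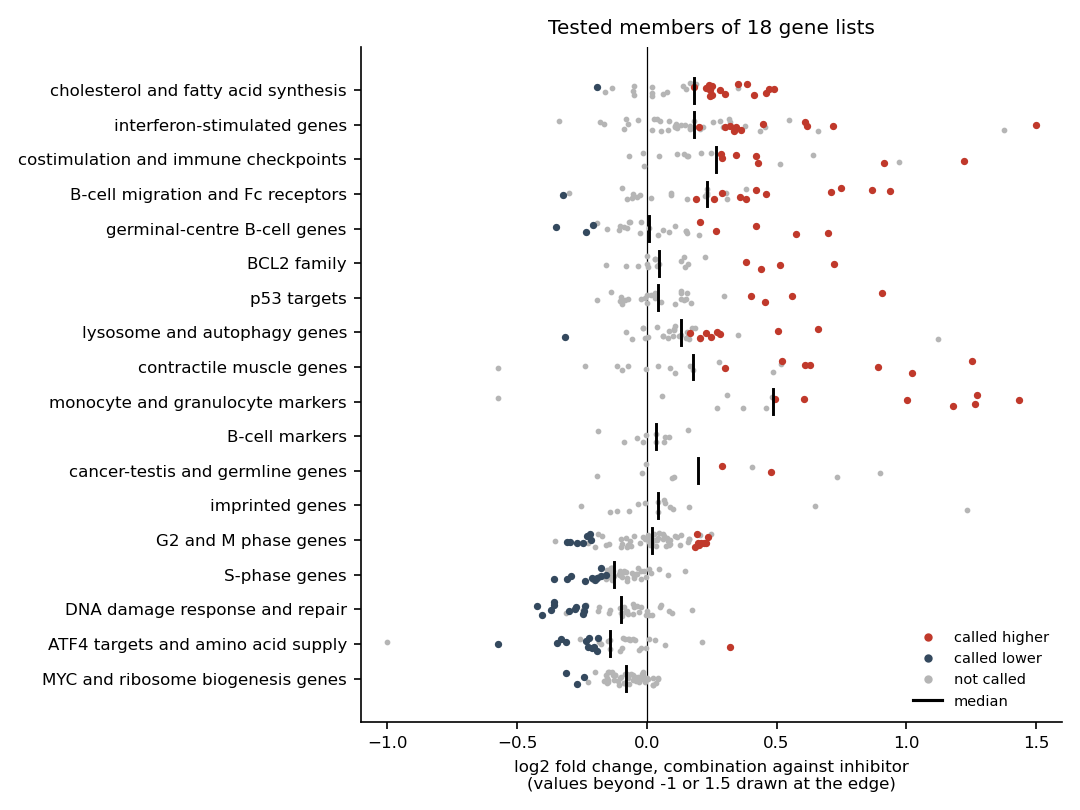
Log2 fold change of every tested member of 18 gene lists, combination against inhibitor. Each dot is a gene (red called higher, dark blue called lower, grey not called), and the black bar is the list's median, which is 0.182 for cholesterol and fatty acid synthesis, -0.127 for S-phase genes and 0.0354 for B-cell markers.

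Genes of other tissues were measured too. Of 29 monocyte and granulocyte markers, 14 passed the filter and 7 of these were called higher (TYROBP, CD33, CLEC7A, MPEG1, FCER1G, LYZ and LILRB2). MPEG1, a pore-forming protein, went from 141, 143 and 149 to 189.7, 189 and 225 CPM (log2 fold change 0.49 ± 0.06 SE, adjusted p = 8.64e-06), and was at 56.6 to 59.3 CPM in vehicle. The summed level of the whole list was 172 to 181 CPM with the inhibitor and 235 to 274 CPM with the combination. Most of both sums was MPEG1 itself, so they say little about the other markers. In the compared libraries, 4 of the 29 were at 0, among them S100A8, S100A12 and ELANE, and 9 had at most 3 counts in any library. Of the 7, TYROBP, CD33 and MPEG1 were called without each library in turn, and the higher count was 4 without inhibitor replicate 1 or 3 or combination replicate 1 or 3 and 2 with a filter of 5 CPM in at least 3 libraries. Of 36 T and NK cell markers, 19 passed, with 3 called higher (CD3G from 0.885, 1.08 and 0.664 to 2.99, 2.78 and 3.01 CPM, CD3E, which was lost without inhibitor replicate 3 or combination replicate 1, and TRBC2) and 1 lower (IL7R from 56.2, 59.7 and 54.7 to 45, 44.7 and 45.5 CPM). Their summed level was 1060 to 1090 and 1100 to 1120 CPM, and 7 were at 0, among them CD7, CD8A and CD8B. Of 17 fibroblast and epithelial markers, 4 passed, COL1A1 and PDGFRB were called higher (PDGFRB not without any 1 of the inhibitor libraries or combination replicate 1 or 3), and 8 were at 0, among them COL1A2 and COL3A1. Their summed level was 7.75 to 8.81 CPM with the inhibitor and 11.1 to 15.4 CPM with the combination. The part of other cell types in the changes of these and other genes was not tested.

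Contractile muscle genes, which lymphocytes do not need, were called higher in 7 of 21 tested (of 41 in the table) and lower in none. TNNT1, slow skeletal troponin T, went from 34.4, 32.1 and 33.6 to 53.5, 54.8 and 45.6 CPM (log2 fold change 0.63 ± 0.07 SE, adjusted p = 3.94e-06), and TNNI2, fast troponin I, from 2.54, 1.57 and 2.3 to 3.96, 4.02 and 3.84 CPM (log2 fold change 0.89 ± 0.18 SE, adjusted p = 0.00215). The others were MYBPC1, RYR1 and MYBPC2, and TNNI1 and MYL4, which depended on single libraries. With a filter of 5 CPM in at least 3 libraries, 3 were called. Of 84 cancer-testis and germline genes, 10 passed the filter and 2 were called higher, PRAME (6.97, 9.17 and 8.99 to 10.1, 12.5 and 12.2 CPM, log2 fold change 0.48 ± 0.13 SE, adjusted p = 0.023) and STAG3 (0.29). Neither was called without inhibitor replicate 1 or combination replicate 3, and PRAME also not without combination replicate 2 (adjusted p = 0.066) or STAG3 without any of 8 libraries. PRAME was at 0 in vehicle and with 5-azacitidine alone. None of the 15 tested imprinted genes was called, nor any of the 3 tested of 11 annotated endogenous retroviral genes in the table (edgeR's test gave 3 and 0 at an unadjusted p under 0.05, and DESeq2 called 0 and 0). Of 22 tested tumour suppressors often silenced by methylation, 4 were called higher (DAPK1, RASSF2, RASSF5 and PTPN6), with 0 calls without any 1 of the 3 inhibitor libraries and 2 without combination replicate 1 or 3.

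How far the addition repeated the effect of 5-azacitidine alone was read from libraries that the comparison does not use. 5-Azacitidine alone raised 770 genes (4.31%) and lowered 849 (4.75%). Replicate 1 of that group stood apart from replicates 2 and 3, as given above, and without it the counts were 684 and 753. The higher count was 497 without vehicle replicate 1, and the lower count was 508, 520 and 538 without 5-azacitidine replicate 2, vehicle replicate 1 and vehicle replicate 3. Of the 806 genes higher with the addition, 315 were also higher with 5-azacitidine alone (39.1% of the first list, 40.9% of the other), 3 were lower and 488 were not called. Of the 506 lower genes, 159 were also lower (31.4% and 18.7%), 6 were higher and 341 were not called. The median log2 fold change with 5-azacitidine alone was 0.274 over the higher genes and -0.105 over the lower ones. Across the 9534 genes of at least 5 CPM in every group, the effects had a Pearson correlation of 0.419 and a Spearman correlation of 0.357. These are descriptions across genes, which are not independent replicates.

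The difference between both effects was tested as an interaction, the effect on the inhibitor minus the effect without it. It was called for 128 genes (0.716%), 47 above 0 and 81 below 0, and 2275 had an unadjusted p under 0.05. Scaling moved this split: it was 24 above and 77 below 0 with library totals only and 88 above and 52 below 0 with the offset for GC and length. The count was sensitive to single libraries. Above 0 it was 10 and 18 without 5-azacitidine replicates 2 and 3, 11, 12 and 13 without inhibitor replicates 1, 2 and 3, 15, 188 and 20 without combination replicates 1, 2 and 3, and 14 and 12 without vehicle replicates 1 and 3. Below 0 it was 141, 25 and 35 without 5-azacitidine replicates 1, 2 and 3, 35, 27 and 24 without inhibitor replicates 1, 2 and 3, 20, 501 and 51 without combination replicates 1, 2 and 3, and 34 and 28 without vehicle replicates 1 and 3. Of the genes called higher with the addition, 27 had a called interaction (15 above 0, 12 below), and of those called lower 57 (4 above, 53 below). The interaction contains the effect on the inhibitor, from the same libraries as these calls. Genes called lower are thereby drawn below 0 and genes called higher above 0, so these splits are no independent result.

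FGR, a kinase of the SRC family, had a larger log2 fold change without the inhibitor. It went from 2.48, 3.21 and 2.02 CPM in vehicle to 7.64, 8.26 and 9.01 CPM with 5-azacitidine alone (log2 fold change 1.68), and from 69.4, 63.2 and 71.1 CPM with the inhibitor to 88.5, 81.7 and 81.8 CPM with the combination (0.32, and adjusted p = 0.0544 without inhibitor replicate 2). The interaction was -1.37 ± 0.13 SE, adjusted p = 2.1e-06. Every library with the inhibitor was above every library with 5-azacitidine alone, and the effect on the inhibitor was smaller on the log scale but larger in CPM. The same order of levels held for CUEDC1 (0.525, 0.692 and 0.582 CPM in vehicle, 2.62, 2.02 and 3.03 with 5-azacitidine, 16.8, 17.6 and 17.3 with the inhibitor and 27.3, 24.9 and 27.5 with both, interaction -1.45 ± 0.21 SE, adjusted p = 0.000797). PLD4, an endolysosomal nuclease, had 1.44, 0.775 and 1.137, 4.44, 4.52 and 4.51, 10.3, 8.45 and 8.19 and 16.1, 16 and 14.1 CPM in these 4 groups (interaction -1.21 ± 0.21 SE, adjusted p = 0.00503). KLHL14, a ubiquitin ligase adaptor of B cells, rose with 5-azacitidine alone (1.37) and stood at 8.6, 8.45 and 9.88 and 9.16, 8.09 and 8.92 CPM with the inhibitor and the combination. FCER2, MPEG1 and MYBPC2 were called higher in both settings, by 0.99, 1.26 and 1.03 without the inhibitor and 0.36, 0.49 and 0.30 with it.

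Other genes had an interaction above 0. GPM6A, a membrane glycoprotein of neurons, fell from 2.48, 2.69 and 2.33 to 0.772, 0.61 and 1.252 CPM with 5-azacitidine alone (-1.51) and stood at 14.2, 15.2 and 13 and 10.6, 11.1 and 12.6 CPM with the inhibitor and the combination (-0.30, adjusted p = 0.112), for an interaction of 1.21 ± 0.23 SE, adjusted p = 0.00894. RPTOR and CAMK1D fell in both settings, with log2 fold changes of -0.93 and -0.94 without the inhibitor against -0.45 and -0.42 with it. RICTOR was at 16.1, 14.7 and 14.3 and 17.3, 18.6 and 18.4 CPM without the inhibitor (0.27, adjusted p = 0.0636) and fell with it, for an interaction of -0.71 ± 0.13 SE, adjusted p = 0.008. So the genes that define the complexes mTORC1 and mTORC2 lay on opposite sides of 0.

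**Figure D4:**
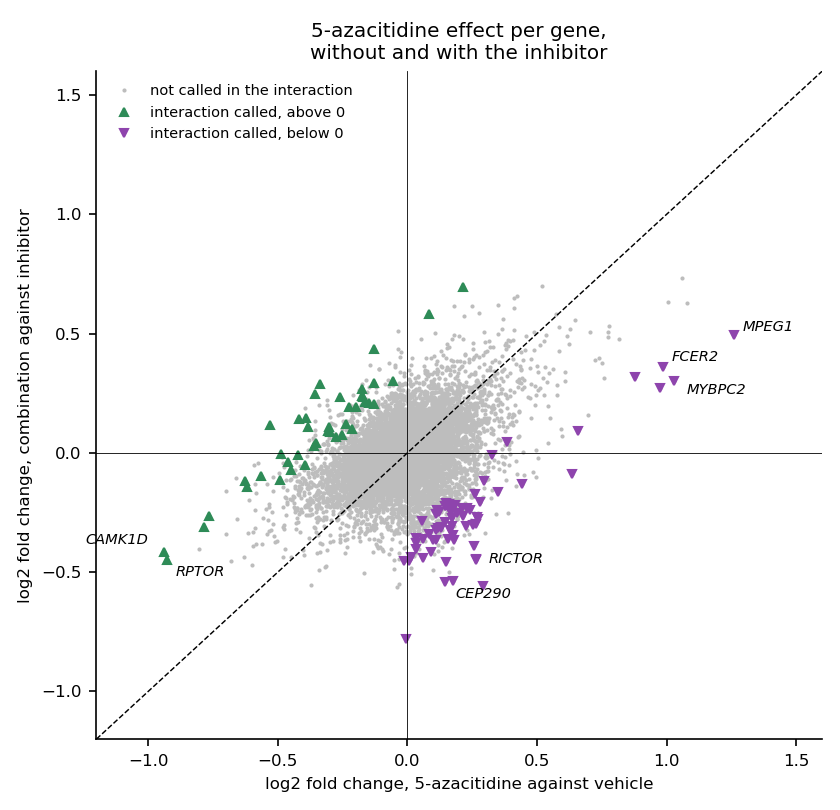
The log2 fold change of 5-azacitidine per gene, without the inhibitor (horizontal) and on the inhibitor (vertical), for the 9534 genes of at least 5 CPM in every group. Triangles are genes with a called interaction, 42 above 0 and 67 below 0, the dashed line is equal effect, and the genes below 0 lie in 2 places, genes such as MPEG1 and FCER2 that rose more without the inhibitor and genes such as RICTOR and CEP290 that were called lower on the inhibitor and not without it.

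The genes that moved shared properties that the comparison did not use. Long genes were called lower more often: 1.03% of genes that span up to 10000 bases and 11.8% of the 498 that span over 300 kb, where 13 were called higher and 59 lower. Within genes of 4000 to 8000 exonic bases the shares were 2.42% and 11.7%, but the rise was not steady. The lower share there was 1.22% to 3.04% in the bins from 10000 to 200000 bases and 5.71% from 200000 to 300000. Lower calls also grew with exonic length, from 0.722% of genes up to 2000 bases to 9.27% of those over 12000. Within genes that span 25000 to 100000 bases these shares were 0.339% and 4.81%. With 5-azacitidine alone, 102 of the 498 were called lower and 17 higher. SYNE2, RPTOR and CAMK1D are examples, and the noncoding LINC00598 (13, 15.9 and 14.5 to 23.8, 21.8 and 27.9 CPM) rose against this pattern. The lower count of 59 was 38 and 37 without inhibitor replicates 2 and 3 and 34 without combination replicate 1, and it was 50 with the offset for GC and length. The higher count of 13 was 4 and 3 without inhibitor replicates 1 and 3 and 4 without combination replicate 3, and 20 with the offset.

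Base composition went along with direction in another way on the inhibitor than without it. Of genes with transcripts of at most 40% GC, 1.37% were called higher and 7.3% lower with the addition, and of those with 55% to 60% GC 7.9% higher and 1.55% lower. With 5-azacitidine alone, lower calls took 0.829% of genes at most 40% GC and 10.2% of those over 60%. Median GC was 53.8% in the genes called higher, 42.2% in those called lower and 48.7% over all 16000 tested genes with a value. The part of base composition in the results of single genes was measured with the offset for GC and exonic length, under which 767 of the 806 higher and 363 of the 506 lower calls were shared. Only 785 of the higher and 489 of the lower calls had a GC value, so the others could not be tested with the offset.

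Genes with few CpG sites at their start were called higher more often. The share called higher was 9.56% with up to 5 sites in the 300-base window, 9.81% with 6 to 10 and 3.84% with over 30. Within genes of 5 to 100 CPM the shares were 13.2%, 13.6% and 4.12%. The median was 21 sites in the 546 higher genes with a window and 28 in the 403 lower ones, against 26 overall. The 4 genes whose windows are printed above, the largest named rises that the promoter table holds, had 1 to 12 sites and lay below these medians. With 5-azacitidine alone the same bins had 9.75%, 9.27% and 3.71% called higher.

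**Figure D5:**
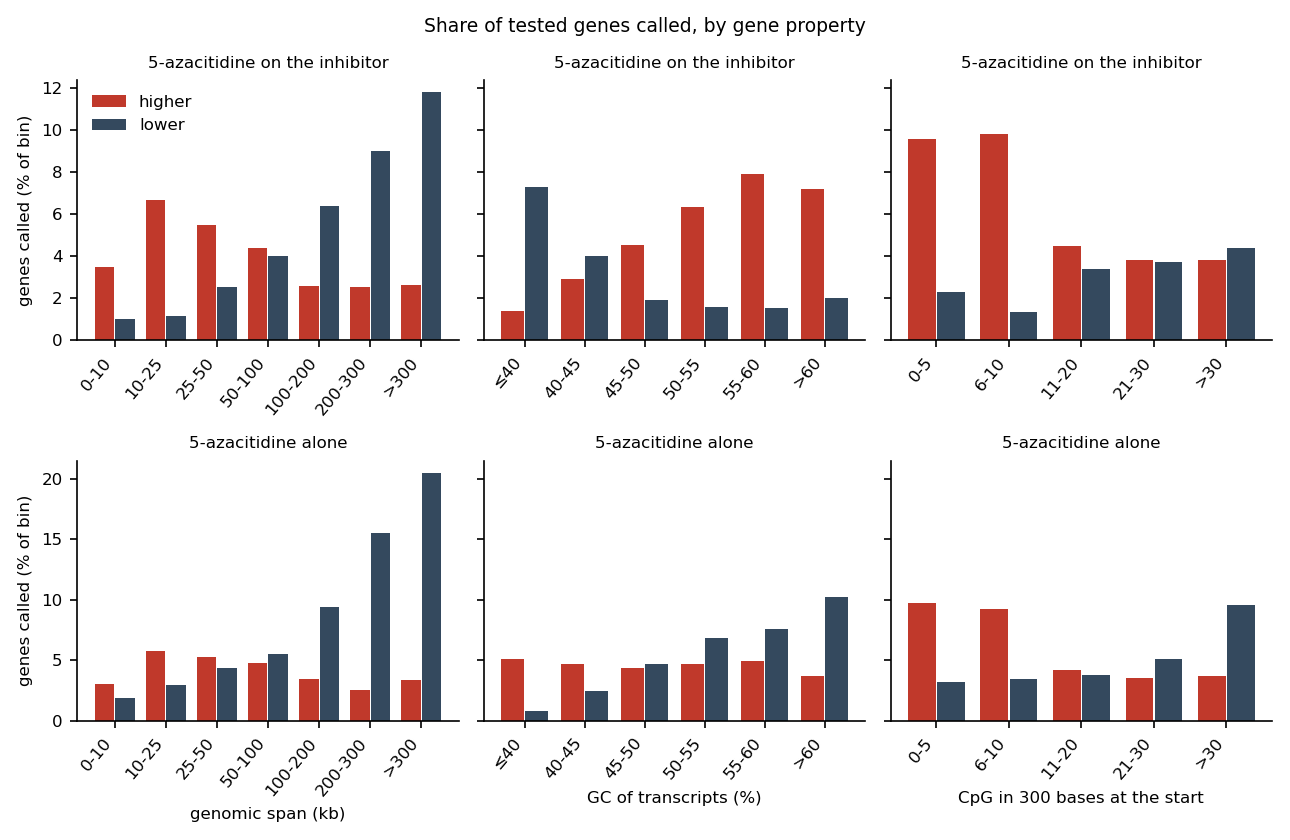
Share of tested genes called higher (red) or lower (dark blue) by genomic span, transcript GC and number of CG sites in the 300 bases around the start, for the addition to the inhibitor (upper panels) and 5-azacitidine alone (lower panels, with their own scale). Lower calls grow with span in both, to 11.8% and 20.5% of genes over 300 kb, and lie at low GC in the upper panels and at high GC in the lower ones.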

How the data were processed

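Poly(A)-selected RNA of OCI-Ly7 cells was sequenced and reads were aligned with STAR 2.7.11b to GRCh38, per the submitters' processing notes (which also name cutadapt 5.1 and Subread 2.1.2). Per the file headers, the authors made the expected counts, which need not be whole, with featureCounts 2.1.1 on Ensembl release 114, with fractional counting of reads with several matches, without strand, and without reads that overlap more than 1 gene. The table names 4 further libraries that were not used here. Values were rounded to whole counts, and 96.9% were whole before, within 1e-06. Libraries held 35947872 to 36337086 counts.

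Genes were kept by filterByExpr of edgeR 4.0.16 (R 4.3.3), scaled by TMM and tested with its quasi-likelihood F-test in 1 fit of all 12 libraries and 4 groups. P-values were adjusted by Benjamini-Hochberg over 17869 genes, and a gene was called under 0.05. The SE is the log2 fold change divided by the square root of F. The code was tested on simulated data. Named genes were the 14 largest rises and falls among called protein-coding genes of at least 5 CPM without overlap of the groups, 4 members per list by adjusted p, chosen regulators, and, without the overlap condition, the 5 largest and 5 smallest interactions. Promoter windows came from RefSeq (GRCh38.p14). Base composition came from GENCODE transcripts and had a value for 16000 tested genes (89.5%). A few genes that these rules select are not reported here. The gene lists and the rule for members were chosen with earlier results of these data known. Replicate numbers did not pair the samples, so groups were compared without a block. Alternatives were DESeq2 1.42.0, limma 3.58.1 (voom), other scalings and filters, and each library left out. The offset for GC and exonic length was chosen after seeing the data.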

Additional observations from a re-analysis of the deposited data

Results flagged for a closer look

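For 22 named genes the effect of 5-azacitidine differed between cells with and without the inhibitor, by the test of that difference itself (edgeR's quasi-likelihood test, adjusted p under 0.05 over all genes tested). In the values that follow, a negative number means a lower log2 fold change on the inhibitor. The difference was -1.45 for PARP15, -1.45 for CUEDC1, -1.40 for KLHL14, -1.37 for FGR and -1.21 for PLD4. It was -0.77 for MPEG1, -0.73 for MYBPC2, -0.63 for FCER2 and -0.51 for BMF, which rose in both settings. For the long genes CEP162, CEP290, CEP152 and RIF1 it was -0.71, -0.69, -0.61 and -0.39, for the mTORC2 subunit RICTOR -0.71, and for the zinc finger gene ZNF43 -0.44.

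Above 0, the difference was 1.21 for GPM6A, 0.98 for GGT7, 0.75 for AAK1, 0.71 for ABAT and 0.60 for ARID5A. It was 0.52 for CAMK1D and 0.48 for RPTOR.

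FGR kept the call in all 23 other fits. CAMK1D, CUEDC1, FCER2, KLHL14, MPEG1, MYBPC2, PLD4, RICTOR and RPTOR lost it in 1, the test against a fold of 1.5. GPM6A also lost it without 5-azacitidine replicate 2 (adjusted p = 0.0649). CEP290 lost it without inhibitor replicate 2 (0.054), without combination replicate 1 (0.0584) and with the offset for GC and length (0.116). CEP152 lost it without 5-azacitidine replicate 2, inhibitor replicate 1, combination replicate 1 or vehicle replicate 3 (0.0588 to 0.0717). With the same offset, RIF1 (adjusted p = 0.193), ZNF43 (0.159), CEP162 (0.0973) and GGT7 (0.0678) were not called. The others lost the call in 9 to 16 fits.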

How the results depend on the processing

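The direction of no called named gene changed in any of the 24 alternative fits, and of the 159 called named genes 93 kept the call in every fit without a fold threshold. Between the combination and the inhibitor, leaving out 1 library gave 443 to 968 genes higher and 225 to 880 lower, and a test against a fold of 1.5 gave 14 and 0. DESeq2 gave 817 and 693. For the interaction, leaving out 1 library gave 10 to 188 genes above 0 and 20 to 501 below. DESeq2 gave 104 and 275, the fold threshold 0 and 1, no filter on low counts 73 and 241, and the offset for GC and length 88 and 52. Library totals only gave 24 above 0, DESeq2's size factors 123 below 0 and the filter of 5 CPM in 3 libraries 135 below 0. For 5-azacitidine alone, leaving out 1 library gave 497 to 948 higher and 508 to 1032 lower, and the fold threshold 29 and 3. Without combination replicate 2, 1 B-cell marker and 1 imprinted gene were called higher and 1 p53 target lower. The cause of these shifts was not tested.

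Replicate numbers are shared between groups, but deviations of same-numbered libraries had correlations of -0.0587 to 0.0279. With the number of the titles as a replicate block, 754 genes were higher and 509 lower, and the interaction counts were 46 and 88. With the number of the library names as a replicate block, 869 were higher and 783 lower, and 166 interactions lay below 0.

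With these depths, 1312 calls were made at a biological coefficient of variation of 6.05%. Each group had 3 libraries, and genes near the floor of 3 counts cannot show a fall.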

Other observations

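Several further gene groups had calls that the report does not describe. Of 19 tested tubulin and neuronal genes, 4 were called higher and none lower: TUBB4A went from 80.6, 85.1 and 92.3 CPM with the inhibitor to 129.8, 105 and 122 CPM with the combination, and TUBA1A from 199, 189 and 207 to 264, 260.4 and 256 CPM. The others were MAP1A (0.34) and DPYSL3 (2.03, not called without inhibitor replicate 1 or 3, adjusted p = 0.069 and 0.0706). With 5-azacitidine alone, none of this list was called higher and 1 lower. Of 32 glycolysis and hypoxia genes, 2 were called higher, the lactate exporter SLC16A3 (9.5, 9.54 and 10.9 to 15.1, 14 and 12.7 CPM) and the glucose transporter SLC2A3 (0.40), and 2 lower, HK2 and PFKP (-0.27 and -0.20). The lower count was 1 without 5-azacitidine replicate 3, vehicle replicate 1, any 1 inhibitor library or combination replicate 3.

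Of 46 histone acetyltransferase, methyltransferase and demethylase genes, 5 were called lower and none higher. KMT2C, an enhancer methyltransferase, went from 48.1, 51.6 and 55.2 to 36.4, 41.2 and 40.3 CPM (log2 fold change -0.38 ± 0.07 SE, adjusted p = 0.000678 in edgeR's test). The lower count was 3, 2 and 2 without inhibitor replicates 1, 2 and 3, 9 with DESeq2 and 8 with the offset for GC and length. Of 13 mitochondrially encoded genes only MT-ND3 was called (0.28), and not without any 1 inhibitor library or combination replicate 3. The median of that list was 0.122, and 0.00745 without combination replicate 3, the library with the highest mitochondrial share.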
